A study of Mus musculus with 6 samples.

Results

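The CXC chemokines that attract neutrophils were followed in ischemic muscle of GPR174-deficient mice, as a set of 10 genes. The set holds the ligands Cxcl1, Cxcl2, Cxcl3, Cxcl5 and Ppbp, the platelet chemokine Pf4, the receptor Cxcr2, the pair Cxcl12 and Cxcr4, and Cxcl14. The members were listed by name and were selected on measured values of the same 6 libraries, since their differences between genotypes were known when the list was made. All 10 were found among the 18089 genes of the table. Their genotype differences are therefore given with standard errors (SE) as a description, with no p-value. The filter on low counts kept 6 of the 10 members, and Cxcl1, Cxcl2, Cxcl3 and Ppbp were below it.

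RNA was taken from the gastrocnemius, a calf muscle, of male C57BL/6 mice aged 8 to 10 weeks at 7 days after hindlimb ischemia (HLI), the ligation and removal of a femoral artery. The WT group was 3 wild-type mice and the KO group 3 Gpr174-/Y mice, which lack the X-linked gene of the lysophosphatidylserine receptor GPR174. Both groups had HLI, and muscle without ischemia was not part of the series, so no value here is a response to HLI. The libraries were made from whole muscle, in which fewer cells of a type and less RNA per cell cannot be told apart.

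The 6 libraries held 18417107 to 19394505 estimated reads each. Gpr174 itself had 7.97, 2.32 and 5.45 estimated reads in the WT libraries and 1.1, 0 and 0 in the KO libraries, in the order of replicates 1 to 3 used for every value here. Replicate 2 of each group stood apart in a particular way. It was close to a weighted mean of replicates 1 and 3, with weights of 0.61 and 0.39 in WT and of 0.6 and 0.4 in KO. The residual variance around that mean was 0.516 (WT) and 0.415 (KO) of the counting variance of separate libraries. Replicate 2 lay between the others for 75.9% (WT) and 66.7% (KO) of genes with a mean of at least 100 reads. By chance, 33.3% would do so. Of the 10 members, 7 did so in each group. The replicates may thus not be 3 independent samples, and each genotype difference was also computed from replicates 1 and 3 alone. Among the more abundant genes, replicates 1 and 2 of KO differed by 1.01 times the counting variance at the median. A chi-square over these genes was 2.16 times its degrees of freedom, so replicates 1 and 2 were kept as separate libraries. With replicates 1 and 3 alone, 0 of 14447 genes passed an adjusted p of 0.05 (edgeR's quasi-likelihood test, smallest adjusted p = 0.0542), while 5026 had an unadjusted p under 0.05. Every p-value below from all 6 libraries is to be read against that count.

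Chemokines are small secreted proteins that guide leukocytes, and those of the CXC class have a single residue between their first paired cysteines. CXCL1, CXCL2, CXCL3, CXCL5 and PPBP carry a glutamate-leucine-arginine motif before these cysteines and draw neutrophils through the receptor CXCR2. They are made by stromal cells, macrophages and endothelium within hours of tissue injury, under IL-1, TNF and IL-17 signals that act through NF-kB, and their messages are short-lived. PF4 lacks the motif, CXCL12 acts through CXCR4 and keeps neutrophils and progenitors in the bone marrow, and both are made in tissues outside inflammation as well.

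Of the 10 members, 6 follow each other on mouse chromosome 5 in the order Cxcl5, Ppbp, Pf4, Cxcl3, Cxcl1 and Cxcl2, with Cxcl15 between Cxcl3 and Cxcl1. The sequences before the start sites of Cxcl1, Cxcl2 and Cxcl3 are shown because they share an element not found in the other windows searched. RefSeq windows of 300 bases (250 before and 50 after the start, build GRCm38.p6) were matched by symbol for 9 of the 10 members. No window was matched for Cxcl5, so it was not searched. The NF-kB consensus, searched on both strands, was found in the windows of 3 members and in 8.46% of 32851 windows of all genes. In each of the 3 genes a match on the plus strand and a match on the minus strand overlapped, and together they covered the same 11 letters, in capitals below. The stretch began 71 bases before the start in Cxcl1, 97 in Cxcl2 and 73 in Cxcl3. The 250 bases before the start are printed 5′ to 3′ on the plus strand, from chr5:90890995-90891244 for Cxcl1, chr5:90903649-90903898 for Cxcl2 and chr5:90785851-90786100 for Cxcl3.
Cxcl1: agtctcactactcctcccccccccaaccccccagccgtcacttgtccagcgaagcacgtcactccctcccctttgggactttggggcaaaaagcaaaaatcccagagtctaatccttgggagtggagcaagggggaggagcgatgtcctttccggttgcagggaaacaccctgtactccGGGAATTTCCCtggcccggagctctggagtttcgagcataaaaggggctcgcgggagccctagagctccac
Cxcl2: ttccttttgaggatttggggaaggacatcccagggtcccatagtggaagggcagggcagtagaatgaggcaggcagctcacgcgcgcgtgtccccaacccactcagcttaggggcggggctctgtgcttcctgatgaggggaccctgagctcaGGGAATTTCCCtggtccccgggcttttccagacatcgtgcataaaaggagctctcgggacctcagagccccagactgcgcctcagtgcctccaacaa
Cxcl3: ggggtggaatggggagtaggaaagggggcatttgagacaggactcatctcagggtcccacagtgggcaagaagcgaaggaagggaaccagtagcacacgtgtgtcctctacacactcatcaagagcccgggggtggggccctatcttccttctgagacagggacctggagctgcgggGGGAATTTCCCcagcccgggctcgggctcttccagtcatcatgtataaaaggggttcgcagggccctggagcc

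The windows of Ppbp, Pf4, Cxcr2, Cxcl12, Cxcr4 and Cxcl14 held no match of that consensus. The letters TATAAA, found in 13.6% of all windows, stood 30 bases before the start in Cxcl3, Ppbp and Cxcr4. The AP-1 letters TGANTCA (7.81% of windows) were found in Ppbp alone among the 9, the C/EBP letters TTGCNNAAT (2.4%) in Pf4 alone, and the EGR1 letters GCGNGGGCG (5.55%) in Cxcr4 alone, all searched on both strands. These matches describe letters in the windows and say nothing about binding in the muscle.

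Cxcl5 (NCBI gene 20311), known in mice as a neutrophil attractant of epithelial and stromal cells and of platelets, had the highest fold among the members with reads in both groups. Its estimated reads were 0, 3 and 4 in WT and 60, 42 and 29 in KO. Each KO library was above each WT library, and the KO values themselves spanned from 1.35 to 2.87 CPM, the share of a library's reads after scaling by edgeR's TMM factors. The log2 fold change between KO and WT was 3.84 (SE 0.59), and 4.09 from replicates 1 and 3. As a ratio of summed reads, 131 in KO against 7 in WT, the difference was 14.9-fold (95% exact interval 7.03 to 37.8, counting error only).

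Cxcl1 (NCBI gene 14825), the classic early attractant of neutrophils, was scarce in both groups. The WT libraries held 4, 6 and 9 reads and the KO libraries 23, 15 and 9. Replicate 3 of WT and replicate 3 of KO had the same number of reads, so the groups overlapped. The fit without the filter gave a log2 fold change of 0.98 (SE 0.45). The ratio of summed reads was 1.97 (95% exact interval 1.13 to 3.55, counting error only). That interval leaves out the spread between mice.

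Cxcl2 (NCBI gene 20310) and Cxcl3 (NCBI gene 330122), close relatives released by activated macrophages, were near the limit of detection. Cxcl2 had 0, 1 and 1 estimated reads in WT and 1.48, 3.36 and 5.34 in KO, while Cxcl3 had 0, 0 and 0 in WT and 1.52, 5.64 and 9.66 in KO. The fractions come from reads that were divided between both genes, whose GENCODE M21 transcripts share a stretch of 110 bases, and 6.31% of the 50-base stretches of Cxcl3 also occur in Cxcl2. Each gene alone is therefore uncertain, and the sum of the pair is firmer. Together they had 0, 1 and 1 reads in WT and 3, 9 and 15 in KO, so the groups did not overlap. The ratio of the summed pair was 10.7 (95% exact interval 2.7 to 93.2, counting error only). With a floor of 3 counts placed in each WT library, the KO mean of Cxcl3 alone was 1.58-fold higher. That value takes no account of error in the KO reads, and KO replicate 1 was itself under the floor, so it is no lower bound.

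The within-group order of these ligands differed. Cxcl1, Cxcl5 and Ppbp had their highest KO value in replicate 1 and their lowest in replicate 3, whereas Cxcl2 and Cxcl3 had the reverse. No single KO library was high for all 5 ligands.

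**Figure D1:**
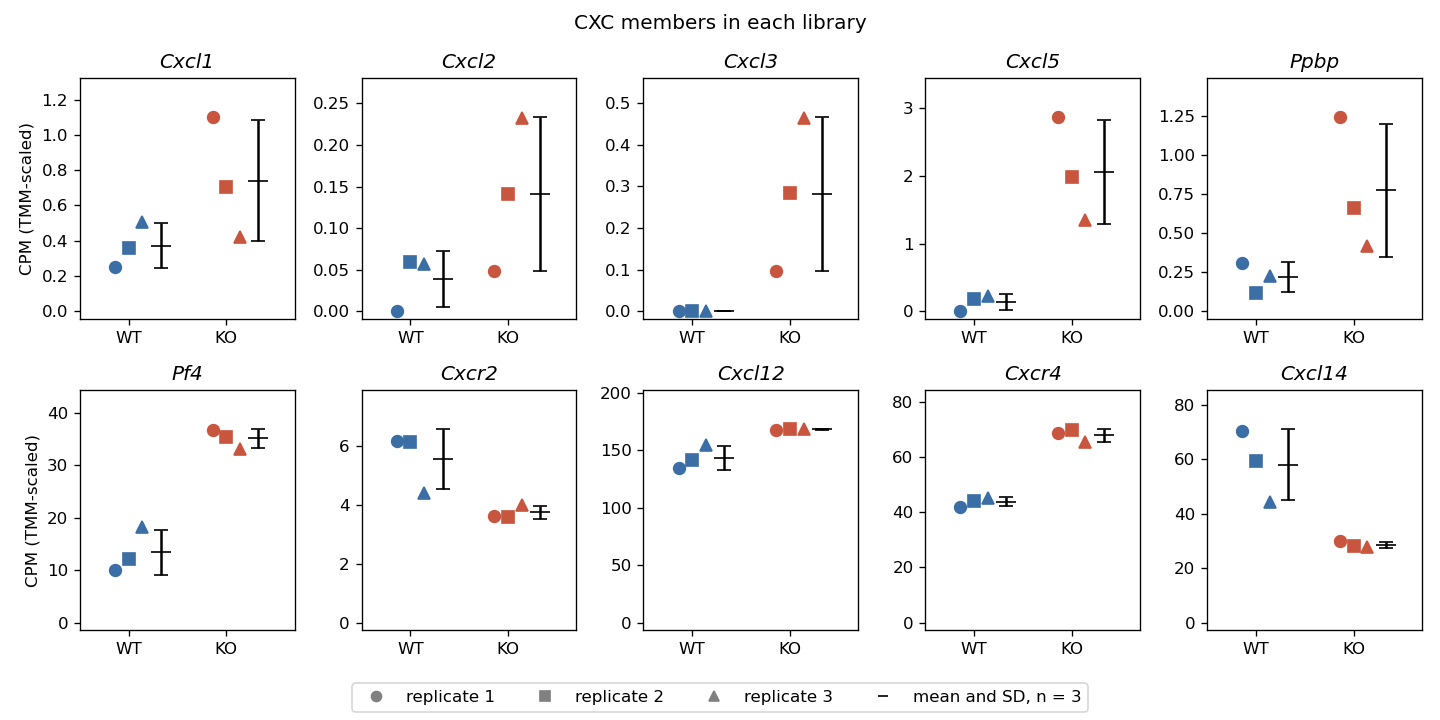
Level of each member in each library, in TMM-scaled CPM on linear axes that differ between panels, with WT in blue and KO in red, a marker shape for each replicate, and the mean and SD (n = 3) beside them. The KO points are above all WT points for Cxcl3, Cxcl5, Ppbp, Pf4, Cxcl12 and Cxcr4, below all WT points for Cxcr2 and Cxcl14, and overlap them for Cxcl1 and Cxcl2.

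Ppbp (NCBI gene 57349) encodes the precursor of a platelet chemokine that is cut to its active form by neutrophil proteases. It had 5, 2 and 4 reads in WT and 26, 14 and 9 in KO, and the groups did not overlap. Its log2 fold change was 1.81 (SE 0.55, no filter), and the ratio of summed reads was 3.55 (95% exact interval 1.82 to 7.56, counting error only).

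Pf4 (NCBI gene 56744), a chemokine of platelet granules that tissue macrophages also express, was far more abundant. Its reads numbered 160, 204 and 324 in WT and 770, 754 and 713 in KO. All KO libraries were above all WT libraries, and the WT values had the wider relative spread, 13.4 CPM with an SD of 4.27 against 35.2 CPM with an SD of 1.84 in KO (n = 3 each). This was a log2 fold change of 1.38 (SE 0.20), and 1.31 from replicates 1 and 3. Leaving out a library in turn moved it between 1.22 and 1.67.

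Genes of the platelet and megakaryocyte list differed in level among themselves. Gp9 and Tubb1 had at most 3 counts in every library, while Itga2b had 40 to 54 and Gp1bb 18 to 54. How far platelets account for Pf4 was not tested. The 12 genes of the platelet list summed to 26.0 to 30.8 CPM in WT and 35.7 to 40.3 CPM in KO. Of the 5 tested, 2 were higher and 1 lower at an adjusted p under 0.05. Over all tested genes these shares were 27.0% and 27.6%. The increases were in P2ry12 (log2 fold change 0.99, SE 0.19, adjusted p = 0.00512), a receptor that microglia and macrophages share with platelets, and Itgb3 (0.60, SE 0.11, adjusted p = 0.00522), an integrin found on many cells. Gp1ba was lower (log2 fold change -0.77, SE 0.23, adjusted p = 0.0282), and its adjusted p was between 0.0698 and 0.0964 without WT replicate 1 or 2 or KO replicate 1 or 2.

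Cxcr2 (NCBI gene 12765, chromosome 1), the receptor through which these ligands act on neutrophils, went the other way. It had 98.72, 102.93 and 78.47 estimated reads in WT and 76.29, 75.71 and 85.55 in KO. On the CPM scale these were 6.16, 6.13 and 4.38 against 3.63, 3.58 and 4.0, so the groups did not overlap on that scale. They overlapped in TPM, at 3.39, 3.53 and 2.66 against 2.67, 2.70 and 3.13, and also when reads were scaled to library totals. The log2 fold change was -0.57 (SE 0.15), -0.46 from replicates 1 and 3 and -0.29 with total-count scaling. Without WT replicate 1 or 2, or KO replicate 1 or 2, the difference no longer passed the adjusted threshold. Cxcr1, the other receptor of this kind, had 0, 0 and 0 reads in WT and 1, 1 and 0 in KO.

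Cxcl12 (NCBI gene 20315, chromosome 6), which stromal and endothelial cells make to hold CXCR4-bearing cells, was the most abundant member. The WT libraries had 2146, 2377 and 2735 reads and the KO libraries 3495, 3574 and 3605. The groups were apart on the CPM scale, at 134, 141 and 154 against 167, 168 and 168, by a log2 fold change of 0.23 (SE 0.06). It was 0.50 with total-count scaling and 0.70 on log2(FPKM + 0.1). It no longer passed the adjusted threshold without WT replicate 2 or any 1 of the KO replicates.

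The 3 RefSeq transcripts of Cxcl12, which differ at their 3′ ends and encode the alpha, beta and gamma isoforms, did not move together. The alpha transcript (NM_021704.3) had 63.9, 72.2 and 82.5 CPM in WT and 113, 112 and 111 CPM in KO, a KO over WT ratio of 1.53. The gamma transcript (NM_001012477.2), whose product binds heparan sulfate most tightly, had 42.2, 44.0 and 46.5 CPM in WT and 27.5, 27.1 and 28.1 CPM in KO, a ratio of 0.624. The beta transcript (NM_013655.4) was at 25.8 CPM (SD 1.45) in WT and 28.2 CPM (SD 1.37) in KO.

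Shares within the gene carry no library scaling. By FPKM, the alpha share was 68.2%, 71.3% and 73.6% in WT and 82.1%, 81.3% and 80.9% in KO, and the gamma share was 14.7%, 14.1% and 13.5% in WT and 6.5%, 6.4% and 6.7% in KO. Neither share overlapped between the groups. The gamma transcript is 3.07 times as long as the alpha transcript by reads per FPKM, so a gene-level FPKM gives an alpha read more weight than a gamma read. The division of reads between transcripts is an estimate made by the authors' counting, and no test was run on it.

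**Figure D2:**
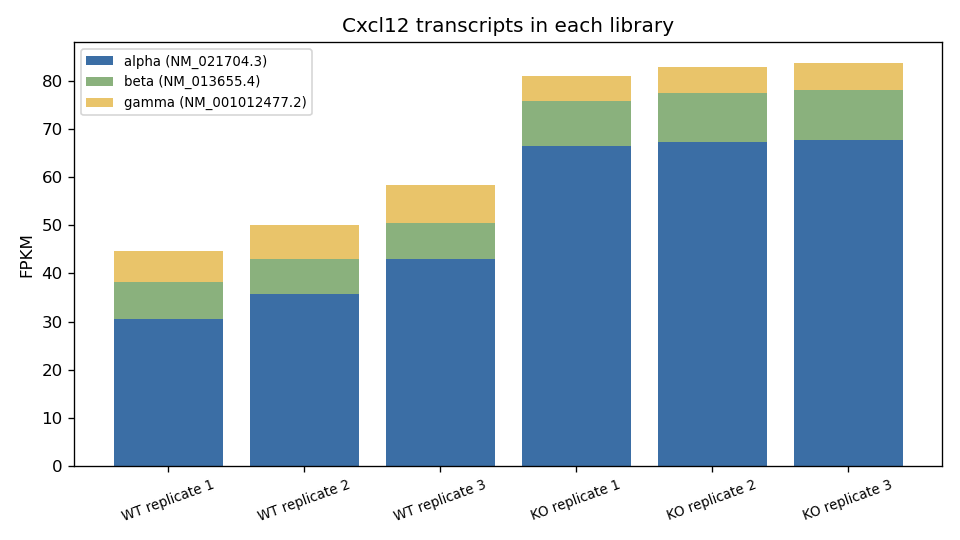
FPKM of the alpha, beta and gamma transcripts of Cxcl12, stacked for each of the 6 libraries. The gamma layer is thinner in each KO bar (5.28 to 5.61 FPKM) than in each WT bar (6.55 to 7.88 FPKM), while the alpha layer is taller.

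Cxcr4 (NCBI gene 12767, chromosome 1), the signaling receptor of CXCL12, was higher in KO. Its reads were 677, 739 and 807 in WT and 1439, 1486 and 1406 in KO, and no KO library came near the WT range of 42.1 to 45.3 CPM. The log2 fold change was 0.63 (SE 0.05), 0.62 from replicates 1 and 3 and 0.91 with total-count scaling. Ackr3, the scavenging receptor that removes CXCL12, fell by 0.59 on the log2 scale (SE 0.07, adjusted p = 0.00114), with 585, 542 and 568 reads in WT and 468, 481 and 473 in KO.

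Cxcl14 (NCBI gene 57266, chromosome 13), a chemokine of resting epithelia, fat and muscle, was the member with the lowest log2 fold change. It had 1135, 999 and 789 reads in WT and 626, 597 and 594 in KO. The KO values were close together, at 27.6 to 29.9 CPM, and the WT values ran from 44.3 to 70.6 CPM without reaching them. The log2 fold change was -1.02 (SE 0.16), -1.0 from replicates 1 and 3, -0.85 without WT replicate 1 and -0.74 with total-count scaling, the last 2 short of the fold needed for a call.

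Across the members, the median log2 fold change was 1.18, or 0.82 with Cxcl3 placed at its fold over the floor. Over the 6 members that passed the filter it was 0.43, beside 0.00 for all 14395 genes that passed it. Of these 6, Cxcl5 and Pf4 were called higher (adjusted p under 0.05 and a log2 fold change above 1) and Cxcl14 was called lower, where 3.45% of all genes were called higher and 4.84% lower. Cxcl5, with at most 4 reads in any WT library, passed the filter only through its KO reads. With at least 10 counts in every library, 5 members were tested and 2 were called. At any fold, Cxcl5, Pf4, Cxcl12 and Cxcr4 passed the adjusted threshold upward and Cxcr2 and Cxcl14 downward, where 27.0% and 27.6% of all genes did so. On the TMM-scaled CPM, the groups did not overlap for 8 of 10 members, 6 with KO above WT and 2 with KO below, where 33.1% of tested genes were above and 32.4% below. Cxcr2 overlapped both with total-count scaling and in TPM. Because the members were chosen with this contrast known, these counts describe them and support nothing further. Scaling to total counts in place of TMM raised the median of all genes by 0.27, and every member kept its direction.

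**Figure D3:**
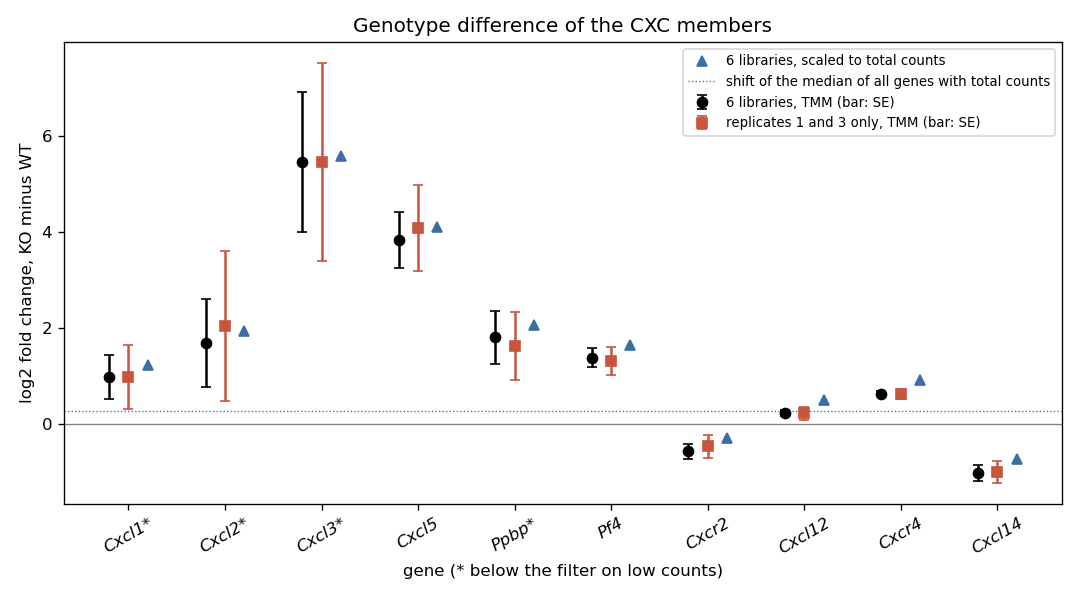
Log2 fold change (KO minus WT) of each member from all 6 libraries (black, with SE), from replicates 1 and 3 alone (red, with SE) and with total-count scaling (blue), with asterisks on the 4 members below the filter. The 3 estimates of a member have the same sign throughout, from 5.47 for Cxcl3 to -1.02 for Cxcl14, and the bars of Cxcl2 and Cxcl3, which rest on few reads, are wide. The fitted value of Cxcl3, which had 0 reads in WT, depends on the prior count and is no bound.

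Levels between members were compared per length, in TPM, which corrects for transcript length. In WT, Cxcl12 stood first at 96.0 TPM (SD 13.5, n = 3). It was followed by Cxcl14 at 55.3 (SD 10.1), Cxcr4 at 43.6 (SD 3.80) and Pf4 at 43.1 (SD 15.9), and the last 3 did not differ beyond their spread. Cxcr2 came next at 3.19 TPM (SD 0.467), and the 5 ligands of CXCR2 were all under 1 TPM, from 0.710 (SD 0.282) for Cxcl1 to 0 for Cxcl3.

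In KO, Cxcl12 at 168 TPM (SD 5.18) and Pf4 at 146 (SD 2.83) led, then Cxcr4 at 88.5 (SD 2.15) and Cxcl14 at 35.8 (SD 0.661), with each neighbour apart by more than the spread. Cxcl5 at 2.86 TPM (SD 0.964) and Cxcr2 at 2.83 (SD 0.257) could not be separated, nor could Cxcl1 at 1.81 (SD 0.783) and Ppbp at 1.66 (SD 0.860). Even in KO, the 5 CXCR2 ligands stayed at or below 3.87 TPM in every library.

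Within 300 kb on either side of the chromosome 5 cluster, 8 other genes had reads. Mthfd2l, with 170 to 208 reads a library, and Epgn, with 3 to 20, passed the filter. Neither passed the test, at adjusted p = 0.0688 for Mthfd2l (log2 fold change -0.29, SE 0.11) and 0.378 for Epgn (-0.71, SE 0.64, and 0.00 without WT replicate 3). Areg, the EGF receptor ligand at the far end of that window, had 2, 2 and 2 reads in WT and 5, 5 and 7 in KO (log2 fold change 1.14, SE 0.43, adjusted p = 0.125 in edgeR's fit without the filter). Ereg, its neighbour, had 2 to 3 reads in WT and 3 to 10 in KO. Alb, Afp, Rassf6 and Cxcl15 stayed at 8 reads or fewer in every library.

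The other CXC ligands and receptors, listed by family, comprised 13 genes, of which 12 were in the table and 7 passed the filter. Cxcl16, the ligand of CXCR6 on T cells and a scavenger receptor of macrophages, rose by a log2 fold change of 1.16 (SE 0.22, adjusted p = 0.00515). Its reads were 398, 563 and 880 in WT and 1632.48, 1708 and 1783 in KO, and the fold change was 0.96 without WT replicate 1. Ackr3, described above, was the only one to fall among the 7 tested, and 5 did not pass. Over all tested genes, 27.0% were higher and 27.6% lower at an adjusted p under 0.05.

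The interferon-induced ligands of CXCR3 did not pass. Cxcl10 had 100, 221 and 465 reads in WT and 619, 700 and 823 in KO (log2 fold change 1.14, SE 0.42, adjusted p = 0.0567). Without WT replicate 3 its log2 fold change was 1.80 (adjusted p = 0.00379 in edgeR), and without WT replicate 1 it was 0.78 (adjusted p = 0.0445). Cxcl9 had 327.87, 686.00 and 1172.65 reads in WT and 811.84, 882.82 and 991.18 in KO, so its KO range lay inside its WT range. Its log2 fold change was -0.01 (SE 0.36, adjusted p = 0.982) and turned to 0.24 with total-count scaling.

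Among the receptors, Cxcr3 was at 2.71 CPM in WT and 2.43 CPM in KO, with a log2 fold change of -0.16 (SE 0.14) that turned to 0.11 with total-count scaling. Cxcr6 had 9 to 23 reads in every library (log2 fold change -0.30, SE 0.43). Ackr1, the chemokine-binding receptor of venules, was at 1.18 CPM and 1.16 CPM (log2 fold change -0.01, SE 0.31, and 0.27 with total-count scaling). Cxcl13, Cxcl15, Cxcl17, Cxcr1 and Cxcr5 had at most 10 reads in any library.

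The signals known to induce or restrain CXCR2 ligands were taken as a list of 24 genes, of which 23 were in the table and 19 were tested. At an adjusted p under 0.05, 15 were higher in KO, 2 were lower and 2 did not pass. Among all tested genes, 27.0% were higher and 27.6% lower. The list had a median log2 fold change of 0.40 beside 0.00 for all genes. It holds inducers and brakes together, so the count gives no direction of signaling. The inducers Il1b (log2 fold change 1.34, SE 0.26) and Tnf (0.99, SE 0.27) were among the 15. So were the brakes Zc3h12a (0.40), Zfp36 (0.32) and Tnfaip3 (0.31), while Nfkbia did not pass. Il6, a cytokine made alongside these ligands, had the largest increase (log2 fold change 2.27, SE 0.57, adjusted p = 0.0141), from 0, 2 and 5 reads in WT to 15, 13 and 16 in KO. Its adjusted p was 0.0596 without WT replicate 2, and its log2 fold change was 3.38 without WT replicate 3. On their WT reads alone, Il6 and Tnf would not have passed the filter on low counts. Neither was tested with at least 10 counts in every library. Il1r1, the signaling receptor of IL-1, rose by 1.38 (SE 0.16, adjusted p = 0.00119), from 28.4 CPM to 74.2 CPM.

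The decreases were Il1a (log2 fold change -0.80, SE 0.23, adjusted p = 0.0277), an alarmin released by dying cells, and Traf3ip2 (-0.63, SE 0.11, adjusted p = 0.0033), the adaptor of the IL-17 receptor. The fall of Il1a rested on 9 to 17 reads a library and did not pass without WT replicate 1 or 2 or KO replicate 2 or 3 (adjusted p between 0.0599 and 0.108). The cytokines Il17f, Il17c, Csf2 and Csf3 had at most 3 reads in every library, and Il17a was not in the table.

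Cells that bear CXCR2 were looked for by their markers. Of 19 neutrophil genes, 18 were in the table, and Ly6g, Ngp, Camp, Ltf and Elane had at most 3 counts in every library. The alarmin S100a8, abundant in neutrophils, had 4 to 15 reads a library. Of the 7 tested, 4 were higher at an adjusted p under 0.05, 2 were lower and 1 did not pass. Mmp8 and Lcn2, among the higher genes, would not have passed the filter on their WT reads alone. With at least 10 counts in every library, 4 neutrophil genes were tested. Over all tested genes, 27.0% were higher and 27.6% lower. Among the higher genes were Lcn2 (log2 fold change 1.79, SE 0.24, adjusted p = 0.00175) and Csf3r (0.63, SE 0.15, adjusted p = 0.0129). Csf3r had 239.15 to 653.47 reads a library. Mmp8, a collagenase of neutrophil granules, rose from 3, 2 and 3 reads in WT to 21, 25 and 29 in KO (log2 fold change 2.85, SE 0.29, adjusted p = 0.000888). Mmp9, a gelatinase that macrophages also make, rose from 41, 195 and 422 reads to 1754, 1712 and 1665 (2.66, SE 0.56, adjusted p = 0.00718), with a log2 fold change of 3.50 without WT replicate 3.

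The neutrophil genes that fell were Hdc (log2 fold change -1.09, SE 0.30, adjusted p = 0.0189), the histamine-forming enzyme shared with mast cells, and Padi4 (-0.83, SE 0.14, adjusted p = 0.00317), which modifies histones in neutrophils. Hdc did not pass without WT replicate 2 or any 1 of the KO replicates (adjusted p between 0.0559 and 0.0683). The neutrophil list summed to 25.3 to 58.5 CPM in WT and 118 to 121 CPM in KO, and Mmp9 alone had 80.6 CPM of the KO sum. The part of neutrophils in the ligand values was not tested.

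Genes of several other cell types also differed between the genotypes. At an adjusted p under 0.05, 27.0% of all tested genes were higher and 27.6% lower. Monocyte and macrophage genes were higher for 12 of 15 tested, led by Itgam (log2 fold change 1.60, SE 0.22, adjusted p = 0.0018), an integrin of myeloid cells, and Cd68 (1.22, SE 0.20, adjusted p = 0.00331), a lysosomal protein of phagocytes. Their summed level ran from 1670 to 2600 CPM in WT and from 3840 to 3920 CPM in KO. Fibroblast genes were split, 6 higher and 5 lower of 12, with Col1a1 (0.87, SE 0.19, adjusted p = 0.00916) and Col1a2 (0.79, SE 0.16, adjusted p = 0.00588) rising, and Pi16 (-1.12, SE 0.14, adjusted p = 0.00139) and Cd34 (-1.04, SE 0.07, adjusted p = 0.000477) falling.

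Endothelial genes were lower for 11 of 12, among them Cldn5 of tight junctions (-0.97, SE 0.08, adjusted p = 0.000717) and the VEGF receptor Kdr (-0.91, SE 0.11, adjusted p = 0.00132), while Vwf was higher (0.38, SE 0.05, adjusted p = 0.00205). Genes of mature muscle fibres were lower for 16 of 16, led by Myh2 (-2.80, SE 0.22, adjusted p = 0.00062) and Pvalb (-2.34, SE 0.30, adjusted p = 0.00148). Their summed level was 150000 to 210000 CPM in WT and 64600 to 73400 CPM in KO, so fibre transcripts were abundant in every library, as the muscle label requires, and took a smaller share of the KO libraries. T and B cell genes did not pass for any of the 6 tested. How much of the members' differences goes with these shifts in cell types was not tested.

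**Figure D4:**
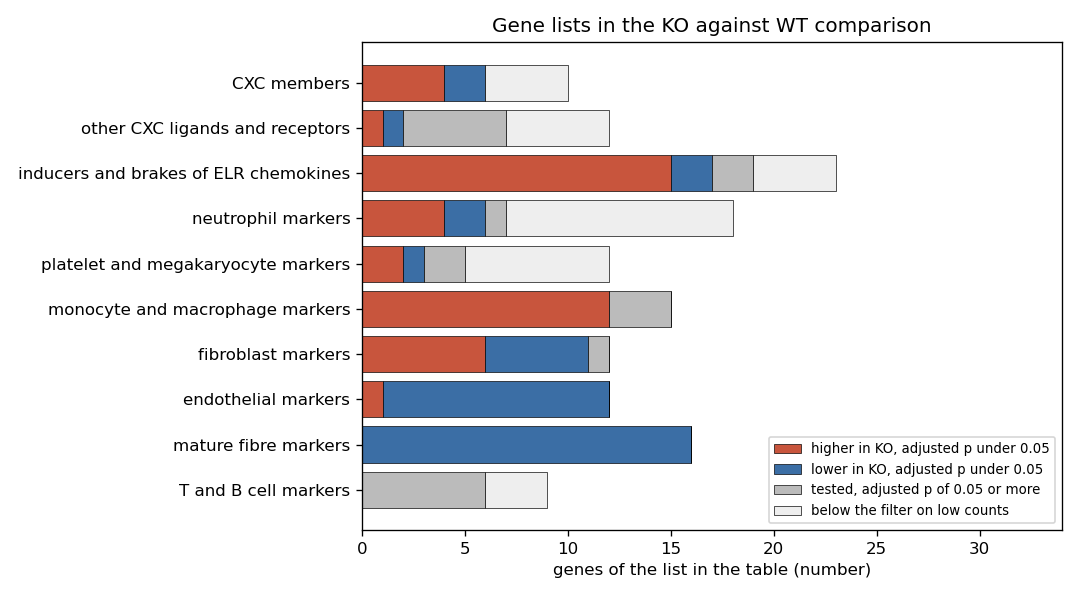
Number of genes of each list that were higher (red) or lower (blue) in KO at an adjusted p under 0.05 in edgeR with all 6 libraries, tested without passing (grey) or below the filter (light). Mature fibre genes are all lower (16 of 16), macrophage genes mostly higher (12 of 15), and most neutrophil genes of the table, 11 of 18, were below the filter. Over all tested genes, 27.0% were higher and 27.6% lower.

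The genes most like Cxcl5 over the 6 libraries, by Pearson correlation of log2 CPM, were Hnrnpl (0.9993), Leprotl1 (0.9989) and Rab23 (0.9989). Those most like Cxcl12 were Fam13b (0.9998), Elf4 (0.9997) and Bcl2a1b (0.9997). Such values were common, since 1989 of 13635 genes reached at least 0.95 with Cxcl5 and 2258 did with Cxcl12. All 6 points share the genotype split, and replicate 2 lies between the others, so the correlations are a description of these libraries.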

How the data were processed

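Libraries from the gastrocnemius of 3 WT and 3 Gpr174-/Y (KO) mice, day 7 of HLI, were run on a BGISEQ-500. The deposited table lists 58843 transcripts with expected counts, which are fractional read numbers estimated by the authors and not normalized. The deposited FPKM values are scaled for transcript length and reads, and the deposited TPM values are scaled to the same sum in each library. The submitters' processing notes name HISAT2 2.0.4, Bowtie2 2.2.5, RSEM 1.2.12 and the build GRCm39, with no role or order, and strand use and filters are not given in the sources used here. Columns of group means were left out. RSEM divides reads that match several transcripts, so genes with near-identical stretches share fractional counts.

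Expected counts were summed per NCBI gene and rounded, and symbols were matched for 99.7% of 18089 genes. Groups came from the sample titles. Genes were compared with edgeR 4.0.16 (TMM, filter on low counts, robust quasi-likelihood test, Benjamini-Hochberg adjustment) in R 4.3.3 over 14395 genes, and a gene was called when its adjusted p was under 0.05 and its log2 fold change exceeded 1 in either direction. Genes below the filter were taken from the same fit without it. A floor of 3 counts corresponded to 0.14 to 0.187 CPM in these libraries. Intervals at 95% cover counting error only, from reads summed over the mice of a group, and leave out the spread between mice. The fold of Cxcl3 over the floor leaves out both kinds of error in the KO reads. The tests were tested on simulated data of independent libraries. The simulation had no replicate that lay between the others and left scarce genes unchanged, so it does not bear on those limits. Tables were made in Python 3.11.15.

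The members and lists were chosen with earlier results of these data known. The genes named are the members, Gpr174, Areg, the other CXC genes, the genes within 300 kb of the chromosome 5 members, and absent markers. The rule also names the 2 largest increases and 2 largest decreases of each list past an adjusted p of 0.05. For Cxcl5 and Cxcl12 it names the 3 genes with the highest correlation among those with a mean of at least 1 CPM. S100a8, Csf3r, Lcn2, Itga2b, Gp1bb, Il1b, Tnf, Zc3h12a, Zfp36, Tnfaip3 and Nfkbia were chosen after their values were seen. A gene that this rule names is not reported here. Start-site windows and gene order are from RefSeq on GRCm38.p6, and shared transcript stretches from GENCODE M21, neither of which is the build of the table, so no coordinates were joined to it.

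Alternatives were DESeq2 1.42.0, total-count scaling, limma 3.58.1 (voom, and with a trend on log2(FPKM + 1) or log2(FPKM + 0.1), keeping genes that reached an FPKM of 1 in 3 libraries), dropping the filter, a filter of 10 counts per library, a replicate block, leaving out each library, and leaving out replicate 2 of both groups. For the Cxcl12 transcripts, shares of expected counts were the alternative to shares of FPKM.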

Additional observations from a re-analysis of the deposited data

How the results depend on the processing

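The count of genes called between genotypes was 1192 (of 14395). It was 645 on log2(FPKM + 1), ranged from 924 to 1826 when a library was left out, with 1826 without WT replicate 3, and was 0 without replicate 2 of both groups, a fit with 2 libraries a group. The members called numbered 3, against 1 on either FPKM scale (5 members tested), 5 with no filter (10 tested), 3 to 5 with a library left out (5 without KO replicate 3) and 0 without replicate 2 of both groups. The other CXC genes called numbered 1, against 2 with voom, on either FPKM scale, with the replicate block and with total counts, 0 to 2 with a library left out (0 without WT replicate 1, 2 without WT replicate 3) and 0 without replicate 2 of both groups. The members' median log2 fold change of 1.18 was 0.43 with DESeq2, voom and the replicate block (6 members), 0.23 with at least 10 counts in every library (5 members), 0.70 and 0.69 on log2(FPKM + 0.1) and log2(FPKM + 1) (5 members), and 0.42 to 0.97 with a library left out, each over fewer members than the 10 of the main value except for fits with no filter. It was 1.15 without replicate 2 of both groups.

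With the replicate block, 1139 genes and 3 members were called. The deviations of same-numbered libraries from their group means correlated at 0.02, -0.03 and -0.01, so no pairing of mice by number was seen. These values cannot exclude one.

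Calls in the lists moved as follows. Inducers and brakes, 3 called, had 6 on log2(FPKM + 0.1) and with total counts, 2 to 5 with a library left out and 0 without replicate 2 of both groups. Neutrophil genes, 4 called, had 2 with at least 10 counts in every library and on either FPKM scale, 3 to 4 with a library left out and 0 without replicate 2. Platelet genes, 0 called, had 1 with voom, log2(FPKM + 0.1), no filter, the replicate block and total counts, and 0 to 1 with a library left out. Macrophage genes, 3 called, had 10 on either FPKM scale, 7 with total counts, 2 to 6 with a library left out and 0 without replicate 2. Fibroblast genes, 2 called, had 1 to 3 with a library left out and 0 without replicate 2. Endothelial genes, 0 called, had 0 to 2 with a library left out. Mature fibre genes, 16 called, had 14 to 16 with a library left out and 0 without replicate 2. T and B cell genes, 0 called, had 1 with total counts and 0 to 1 with a library left out.

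By expected counts in place of FPKM, the Cxcl12 alpha share was 50.9% in WT and 66.7% in KO, the beta share 18.2% and 16.8%, and the gamma share 31% and 16.5%, with the same directions between groups.

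Over the members and the refits that kept them, 103 values were compared with the main ones. No member changed sign, and 13 of these values moved by more than the spread within groups. Cxcl2 and Cxcl3 were compared only with total counts and without replicate 2 of both groups. The other CXC genes Cxcl9, Cxcr3, Cxcr6 and Ackr1, with log2 fold changes near 0, changed sign. Cxcl9 was at 0.14 with voom, 0.42 and 0.38 on log2(FPKM + 0.1) and log2(FPKM + 1), 0.11 with the replicate block, 0.24 with total counts, and -0.33 to 0.47 with a library left out. Cxcr3 was at 0.12 and 0.08 on the FPKM scales and 0.11 with total counts. Cxcr6 ranged from -0.80 to 0.03 with a library left out. Ackr1 was at 0.05 with voom, 0.28 and 0.14 on the FPKM scales, 0.00 with no filter and with the replicate block, 0.27 with total counts, 0.05 without replicate 2 of both groups, and -0.29 to 0.16 with a library left out. The causes were not tested. Depth limits Cxcl1, Cxcl2, Cxcl3, Cxcl5 and Ppbp, which had at most 60 reads in any library, and a gene with fewer than 3 reads could not be told from absence.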

Other observations

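The division of reads between transcripts was unsteady for 3 members. The RefSeq transcript NM_009909.3 of Cxcr2 took 24.7%, 0% and 99.8% of the gene's estimated reads in the WT libraries and 28.9%, 0% and 0% in the KO libraries. For Cxcr4, NM_001356509.1 took 0%, 8.0% and 0% in WT and 21.1%, 9.3% and 0% in KO. For Cxcl14, NM_019568.2 had 127 reads in KO replicate 3, or 21.4% of that library's Cxcl14 reads, and 0 in the other 5 libraries. In contrast, each share of the 3 Cxcl12 transcripts kept within an SD of 2.90 percentage points inside a group. No comparison was drawn from the unsteady shares.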
